A study of Mus musculus with 24 samples.

Results

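Solute carriers are membrane proteins that move nutrients, metabolites and ions across the plasma membrane and the membranes of organelles, and each family is numbered by its relatedness and its cargo. Proliferating B cells are known to depend on carriers for amino acids, glucose, lactate and nucleosides, and on mitochondrial carriers that exchange metabolites between the matrix and the cytosol. All genes whose symbol begins with Slc and a number were taken from a table of RNA-seq counts, which gave 186 of 11140 genes. They were grouped by the known cargo of their family into 26 genes for amino acids and peptides, 12 for glucose, sugar phosphates and lactate, 4 for nucleosides and nucleobases, 26 for metals, 28 for inorganic ions, 35 mitochondrial carriers, 22 for nucleotide sugars and related Slc35 proteins, 8 for vitamins and cofactors, and 22 for other organic solutes. The last 3 genes, Slc4a1ap, Slc7a6os and Slc9a3r1, carry the symbol but encode proteins that are not transporters.

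The mice were C57BL/6 and all carried a Bcl6 transgene, and RNA was taken from their B lymphoma cells after purification from the spleen, so every comparison is between lymphomas and none is with normal B cells. The T cell sufficient group (Bcl6Tg/+, n = 12) kept its T cells, and the T cell deficient group (Bcl6Tg/+CD3Epsilon-/-, n = 11) also lacked CD3 epsilon, without which T cells do not develop. The study asks how T cells survey lymphoma-prone B cells; the labels give neither the promoter of the transgene nor the ages of the mice. Libraries were sequenced in 2 runs, with 7 sufficient and 5 deficient lymphomas in run 1 and 5 and 6 in run 2.

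Gene totals ranged from 7576034 to 30607005 counts (7.58 to 30.6 M) per library, with a mean of 15.8 M counts (SD 6.00 M, n = 12) in sufficient and 20.6 M counts (SD 6.03 M, n = 11) in deficient lymphomas, and 3 counts equalled 0.102 to 0.406 CPM, counts scaled to the library total and its TMM factor. All 10 B cell markers had a row, and 5 of them were lower in deficient lymphomas and 0 higher, where 11.7% of all genes were lower. Cd3e was counted in every deficient library, at 0.721 to 5.77 CPM against 0 to 2.47 CPM in sufficient ones, so it does not check the genotype. Of 6 T cell markers tested, 1 (Cd2) was lower in deficient lymphomas and 0 higher. Their log2 changes of deficient over sufficient lymphomas ran from -2.59 (Cd28) to 1.07 (Cd3e), with a median of -0.56. The groups also differed in Xist, which is transcribed from the inactive X chromosome, and the Y-linked Ddx3y: 8 of 11 deficient and 3 of 12 sufficient libraries had Ddx3y without Xist, and 3 sufficient libraries (9, 10 and 11) had both, with presence set at 50 CPM for Xist and 10 CPM for Ddx3y. Lower levels of the other gene were also counted in some libraries. Another set of 3 libraries correlated least with the rest (sufficient 8 and 10, deficient 6), so counts below are also given without each set. In bulk RNA, fewer cells of a type and less RNA per cell cannot be told apart.

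Of the 184 carrier genes that passed the filter on low counts, 12 were higher and 20 lower in deficient lymphomas, or 17.4%, at an adjusted p under 0.05 by edgeR's quasi-likelihood test with run as a term (Benjamini-Hochberg over all genes tested). Over all 11020 genes tested the share called was 22.2%, with 10.6% higher and 11.7% lower, so the carriers were not called more often than other genes. The median log2 fold change of deficient over sufficient lymphomas was -0.07 over the carriers and -0.01 over all genes. The 2 genes removed by the filter were Slc24a4 and Slc9a4. Fold changes past 2-fold were found for 3 genes that were higher (Slc41a2, Slc25a13, Slc22a15) and 8 that were lower, and 12 of the 32 changes were under 1.5-fold. For no member were the CPM of the groups fully apart, against 0.0907% of all genes apart with deficient higher and 0.0726% apart with deficient lower. Scaling to the total count alone gave 16 higher and 13 lower, with no share of all genes given for that fit.

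All 32 changes had the same sign in both runs, which the selection on both runs together favours. Over all carriers, 130 of 185 (70.3%) had the same sign in both runs, against 72.8% of all genes. Run 1 alone gave 0 calls by edgeR, over a background of 0.0% called, and run 2 alone gave 7 higher and 12 lower against a background of 5.69% and 6.61%. In run 1, 24 carriers had an unadjusted edgeR p under 0.05, a count for which no background over all genes is given here. No carrier had an interaction of group and run past the threshold in edgeR, DESeq2 or limma-voom, over a background of 0.0% in edgeR. At an unadjusted edgeR p under 0.05 there were 12 of the 184 carriers and 723 of all 11020 genes tested. Leaving out each library in turn kept 19 of the 32 calls in all 23 fits. Without the 3 libraries holding both Xist and Ddx3y the counts were 6 higher and 12 lower, and without the 3 least like the rest 6 higher and 13 lower. The share of all genes called without these libraries is not given here. A group of 13 genes, 4 higher and 9 lower, passed in every fit with a library left out and without each set of 3. Those higher were Slc7a1, Slc31a1, Slc41a2 and Slc25a10, and those lower included Slc36a1, Slc37a2, Slc50a1, Slc29a3, Slc4a8, Slc25a45, Slc35c2 and Slc9a3r1.

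**Figure D1:**
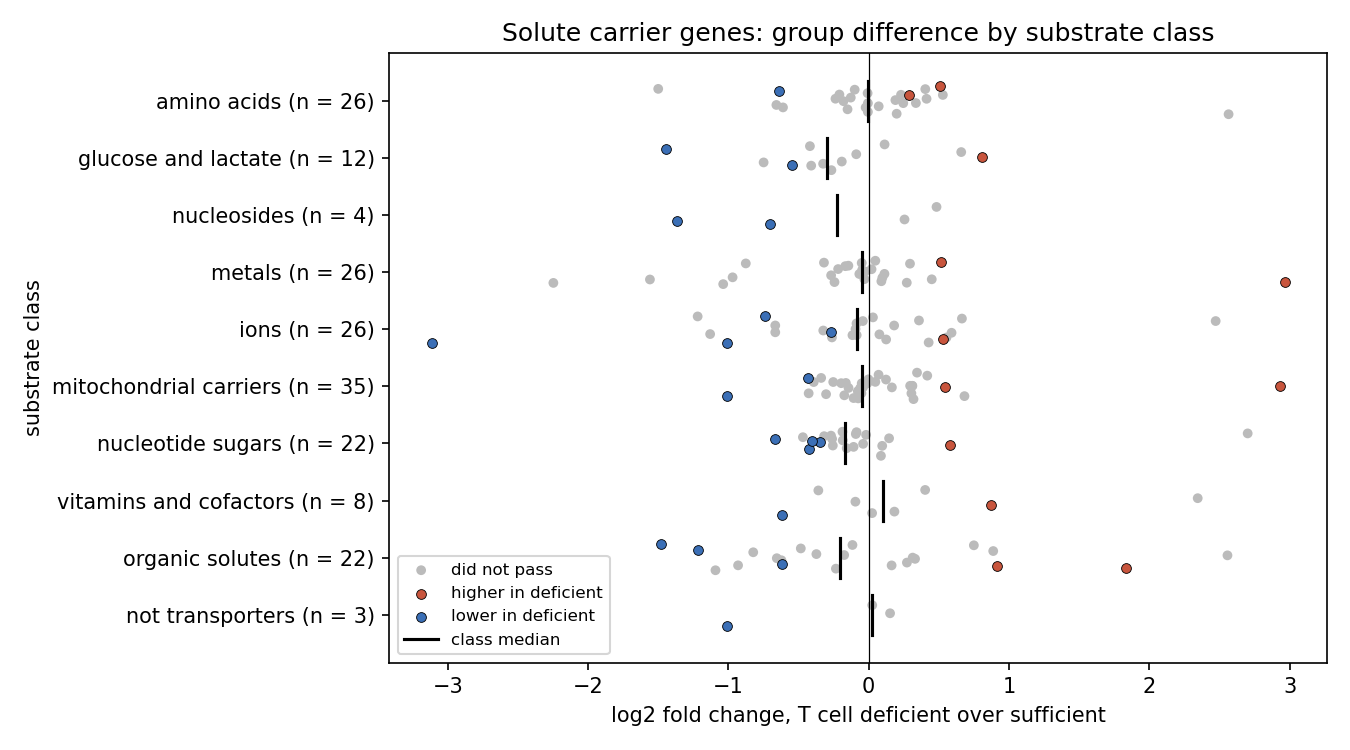
Each point is 1 of the 184 tested solute carrier genes, placed by its log2 fold change of T cell deficient over sufficient lymphomas (x axis) and its substrate class (y axis); black bars are class medians. The 12 genes that were higher and the 20 that were lower are coloured, and the largest changes belong to Slc4a8 (-3.11) on the left and Slc41a2 (2.97) on the right.

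Upstream sequences are shown for the 3 carriers with the largest changes past the test and for the lactate carrier Slc16a1, since the results turn on these 4 genes. Each is the 250 bases before the start of the gene in the RefSeq promoter table for GRCm38.p6, read 5′ to 3′ on the strand of the gene. Capitals mark matches to 4 motifs searched on both strands: CACGTG, the E-box; TTCNNNGAA, the STAT site; TGCNCNC, the metal response core; and TGATGCAA, the amino acid response element.
Slc4a8, chr15:100761497-100761746, plus strand: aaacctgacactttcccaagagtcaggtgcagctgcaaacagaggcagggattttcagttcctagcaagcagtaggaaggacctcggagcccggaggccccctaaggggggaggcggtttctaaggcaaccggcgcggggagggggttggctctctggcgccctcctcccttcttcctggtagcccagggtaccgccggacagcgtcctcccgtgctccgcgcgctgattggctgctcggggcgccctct
Slc41a2, chr10:83337818-83338067, minus strand: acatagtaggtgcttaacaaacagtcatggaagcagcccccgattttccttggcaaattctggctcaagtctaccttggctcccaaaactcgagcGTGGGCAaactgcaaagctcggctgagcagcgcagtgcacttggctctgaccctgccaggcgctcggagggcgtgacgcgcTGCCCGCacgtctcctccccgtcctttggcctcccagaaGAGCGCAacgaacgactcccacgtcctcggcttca
Slc25a13, chr6:6217174-6217423, minus strand: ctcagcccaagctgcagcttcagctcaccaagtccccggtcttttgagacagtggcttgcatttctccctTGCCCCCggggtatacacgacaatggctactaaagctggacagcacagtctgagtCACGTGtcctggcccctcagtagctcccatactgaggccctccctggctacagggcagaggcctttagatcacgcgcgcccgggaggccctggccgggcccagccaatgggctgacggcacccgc
Slc16a1, chr3:104638414-104638663, plus strand: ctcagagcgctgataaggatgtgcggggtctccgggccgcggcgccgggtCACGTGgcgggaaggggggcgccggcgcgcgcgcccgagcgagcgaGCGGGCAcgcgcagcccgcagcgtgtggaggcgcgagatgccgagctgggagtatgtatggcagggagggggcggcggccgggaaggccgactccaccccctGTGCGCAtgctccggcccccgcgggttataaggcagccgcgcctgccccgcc
The Slc4a8 window held none of the 4 motifs. The E-box stood once each in Slc25a13 and Slc16a1. Slc41a2 held 3 matches to the metal response core, and Slc25a13 and Slc16a1 held matches to it as well. This short pattern was also present in 44.4% of all windows. Promoters were matched for 142 of the 186 genes, in 191 windows. The E-box was present in 12.0% of carrier windows and in 6.02% of all 32851 windows of the table, which were not limited to the genes tested. By gene, it was found in 22 of the 142 carriers with a promoter. A similar share of the changed carriers had it, 5 of the 28 with a promoter (Slc12a9, Slc16a1, Slc25a13, Slc35a5 and Slc36a1). The other motifs were present in 5.76% of carrier and 7.02% of all windows (STAT site), in 51.3% and 44.4% (metal response core), and in 1.05% and 0.791% (amino acid response element). A match describes letters and does not show that a factor binds.

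The amino acid carriers included the most abundant plasma membrane transporters of these lymphomas. Per kilobase of exon, Slc7a5 (LAT1, which exchanges large neutral amino acids) stood at 59.5 CPM per kb ± 19.7 (SD, n = 12) in sufficient and 82.1 ± 56.3 (SD, n = 11) in deficient lymphomas, and Slc3a2 (CD98, the heavy chain that LAT1 needs) at 56.8 ± 20.9 and 61.4 ± 28.4. Among 26 members 2 were higher and 1 lower, or 11.5% called where 22.2% of all genes were, and the class median was -0.01. Slc7a1, the cationic amino acid transporter CAT1 that imports arginine and lysine, ranged over 152.7, 333 and 438 CPM (lowest, median, highest) in sufficient and over 391, 443 and 571 CPM in deficient lymphomas. 7 sufficient libraries lay below every deficient one, and 6 deficient libraries lay above every sufficient one. The change was 0.51 ± 0.14 (SE) on the log2 scale, with an adjusted edgeR p of 0.0135, and was 0.31 in run 1 and 0.72 in run 2.

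Slc7a6, the y+LAT2 light chain that exports cationic amino acids, was 0.29 ± 0.10 (SE) higher, with an adjusted edgeR p of 0.0345. It passed in 18 of the 23 fits with a library left out, and missed the threshold without sufficient 7 or deficient 1, 2, 7 or 9, with an adjusted p of up to 0.0628. Slc36a1 (PAT1), a lysosomal proton-coupled amino acid exporter linked to mTORC1, ranged over 8.39, 17.7 and 39.7 CPM in sufficient and 8.61, 14.5 and 21.2 CPM in deficient lymphomas. The groups overlapped widely, with 5 sufficient libraries above every deficient one. The level of Slc36a1 also differed between runs, and with run as a term it was 1.56-fold lower in deficient lymphomas (log2 change -0.64 ± 0.15 SE, adjusted edgeR p 0.00461), while without the run term its adjusted p was 0.113. Of 21 tested genes of lysosomal amino acid sensing by mTORC1, 5 were lower and 0 higher, with a list median of -0.07, and 11.7% of all genes were lower. The 5 were Sesn3, a sestrin that restrains mTORC1 (-1.15 ± 0.24, adjusted p 0.00221), the Ragulator subunits Lamtor1 and Lamtor4, the folliculin gene Flcn, and Nprl3 of the GATOR1 complex.

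Slc7a5 did not pass the test. It ranged over 117.8, 202 and 362 CPM in sufficient and 106.2, 220 and 835 CPM in deficient lymphomas, and only deficient 7 (533 CPM) and 9 (835 CPM) lay above all sufficient libraries. Its log2 change was 0.53 ± 0.22 (SE) with an adjusted edgeR p of 0.0869, which became 0.0405 without deficient 6, 0.0452 without deficient 11 and 0.0475 with scaling to the total count. Slc3a2 (0.20 ± 0.17), the glutamine carrier Slc1a5 (ASCT2, 0.19 ± 0.14) and the sodium-coupled glutamine carriers Slc38a1 (-0.10 ± 0.13) and Slc38a2 (-0.18 ± 0.23) did not pass, with adjusted p of 0.332 to 0.61. The cystine transporter Slc7a11 was not analysed here. Of 15 tested glutamine and amino acid response genes, 1 was higher (Got2, mitochondrial aspartate aminotransferase) and 1 lower (Glud1, glutamate dehydrogenase). Over all genes 10.6% were higher and 11.7% lower.

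Slc7a5 and Slc3a2 encode chains of the same transporter, and their levels moved together among the lymphomas. With group and run means removed, Pearson's r of log2 CPM was 0.715 over 23 libraries (permutation p 0.0006, adjusted 0.0018 over 6 pairs of genes) and Spearman's rho was 0.667 (permutation p 0.00191, adjusted 0.00573). Without the 2 libraries farthest from the median (deficient 6 and 9) r was 0.681. It was 0.87 in run 1 (n = 12) and 0.331 in run 2 (n = 11), so the relation was weak within run 2. The 6 pairs were chosen after values had been seen, and of the other pairs only Slc11a1 and Slc40a1 passed.

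**Figure D2:**
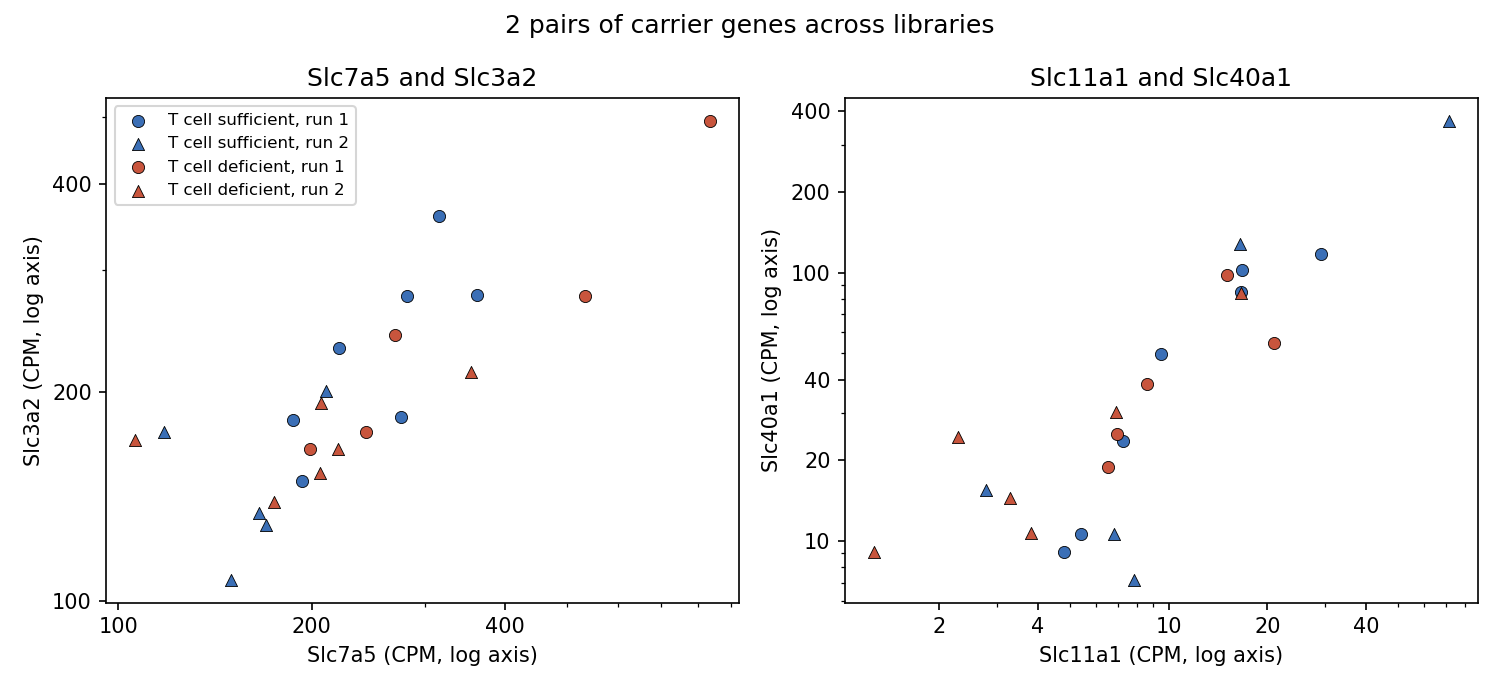
Each point is 1 library, with CPM on log axes on both sides, colours for the groups and shapes for the runs. Deficient lymphoma 9 is highest for both Slc7a5 and Slc3a2 in the left panel, and sufficient lymphoma 11 is highest for both Slc11a1 and Slc40a1 in the right panel.

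Of 12 carriers of glucose, sugar phosphates and lactate, the lactate carrier Slc16a1 was higher and the sugar carriers Slc37a2 and Slc50a1 were lower, so 3 of 12 were called where 22.2% of all genes were. The class median log2 change was -0.30. Slc2a1 (GLUT1) ranged over 45.3, 58.5 and 101 CPM in sufficient and 40.6, 61.8 and 119 CPM in deficient lymphomas, with overlapping groups, a log2 change of 0.11 ± 0.19 (SE) and an adjusted edgeR p of 0.687. Slc2a3 (GLUT3) had medians of 17.4 and 16.8 CPM, and did not pass either (-0.33 ± 0.22 SE, adjusted p 0.286). Among 16 tested glycolysis enzymes the phosphofructokinase genes moved in opposite directions, with Pfkm higher (1.04 ± 0.33, adjusted p 0.028) and Pfkl lower (-0.72 ± 0.23, adjusted p 0.0296), and the other 14 did not pass. The shares of all genes were 10.6% higher and 11.7% lower.

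Slc16a1 (MCT1), which carries lactate and pyruvate with a proton, ranged over 13.8, 97.1 and 195 CPM in sufficient and 120, 150 and 256 CPM in deficient lymphomas. 7 sufficient libraries lay below every deficient one, the lowest of them sufficient 10, and deficient 6 and 7 lay above every sufficient one. The log2 change was 0.81 ± 0.27 (SE), with an adjusted edgeR p of 0.0341, and was 0.43 in run 1 and 1.22 in run 2. The call was lost in 6 of 23 fits, without sufficient 7, 8 or 11 or deficient 4, 5 or 7, with an adjusted p of up to 0.0659. Embigin (Emb), an ancillary protein that brings monocarboxylate carriers to the membrane, was also higher, at 0.435, 32.2 and 115 CPM in sufficient and 69.2, 98.9 and 180 CPM in deficient lymphomas (log2 change 1.96 ± 0.60 SE, adjusted edgeR p 0.0223). Basigin (Bsg), the main partner of MCT1, did not pass (-0.26 ± 0.15 SE, adjusted p 0.23), and nor did Slc16a3 (MCT4, a lactate exporter), at -0.41 ± 0.65 (SE). With group and run means removed, Slc16a1 had no correlation past the threshold with Emb (r 0.11, permutation p 0.825, adjusted 0.988) or with Bsg (r -0.00423, permutation p 0.988, adjusted 0.988).

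Slc37a2, a sugar phosphate exchanger of the endoplasmic reticulum, was 2.72-fold lower in deficient lymphomas. It ranged over 10.02, 22.2 and 65.9 CPM in sufficient and 4.31, 10.5 and 19.4 CPM in deficient ones, with 5 deficient libraries below every sufficient one. Its log2 change was -1.44 ± 0.31 (SE, adjusted edgeR p 0.00306), with -0.80 in run 1 and -2.15 in run 2, and permuting group labels within runs gave a two-sided p of 0.00033. Such permutation p are unadjusted and were computed for the gene with the smallest edgeR p in each of 9 classes, so they repeat the edgeR result under another test and are not independent of it. Slc37a2 overlaps a predicted gene, so part of its counts is uncertain. It is also known to be expressed in macrophages, and some macrophage markers differed between the groups. Of 20 monocyte and macrophage markers, 17 had a row, and 4 of these (Lyz2, Itgam, Mpeg1, Ms4a7) were lower and 0 higher. The share of all genes that were lower was 11.7%. Their summed level was 569.8 to 3717 CPM in sufficient libraries and 318 to 975 CPM in deficient ones, while Adgre1, Clec4f and Vsig4 had no row. The part of these markers in the result was not tested. Slc50a1 (SWEET1), a sugar carrier of internal membranes, was lower by 1.46-fold (-0.55 ± 0.13 SE, adjusted p 0.00638), and 7 of 11 deficient libraries fell under the whole sufficient range.

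**Figure D3:**
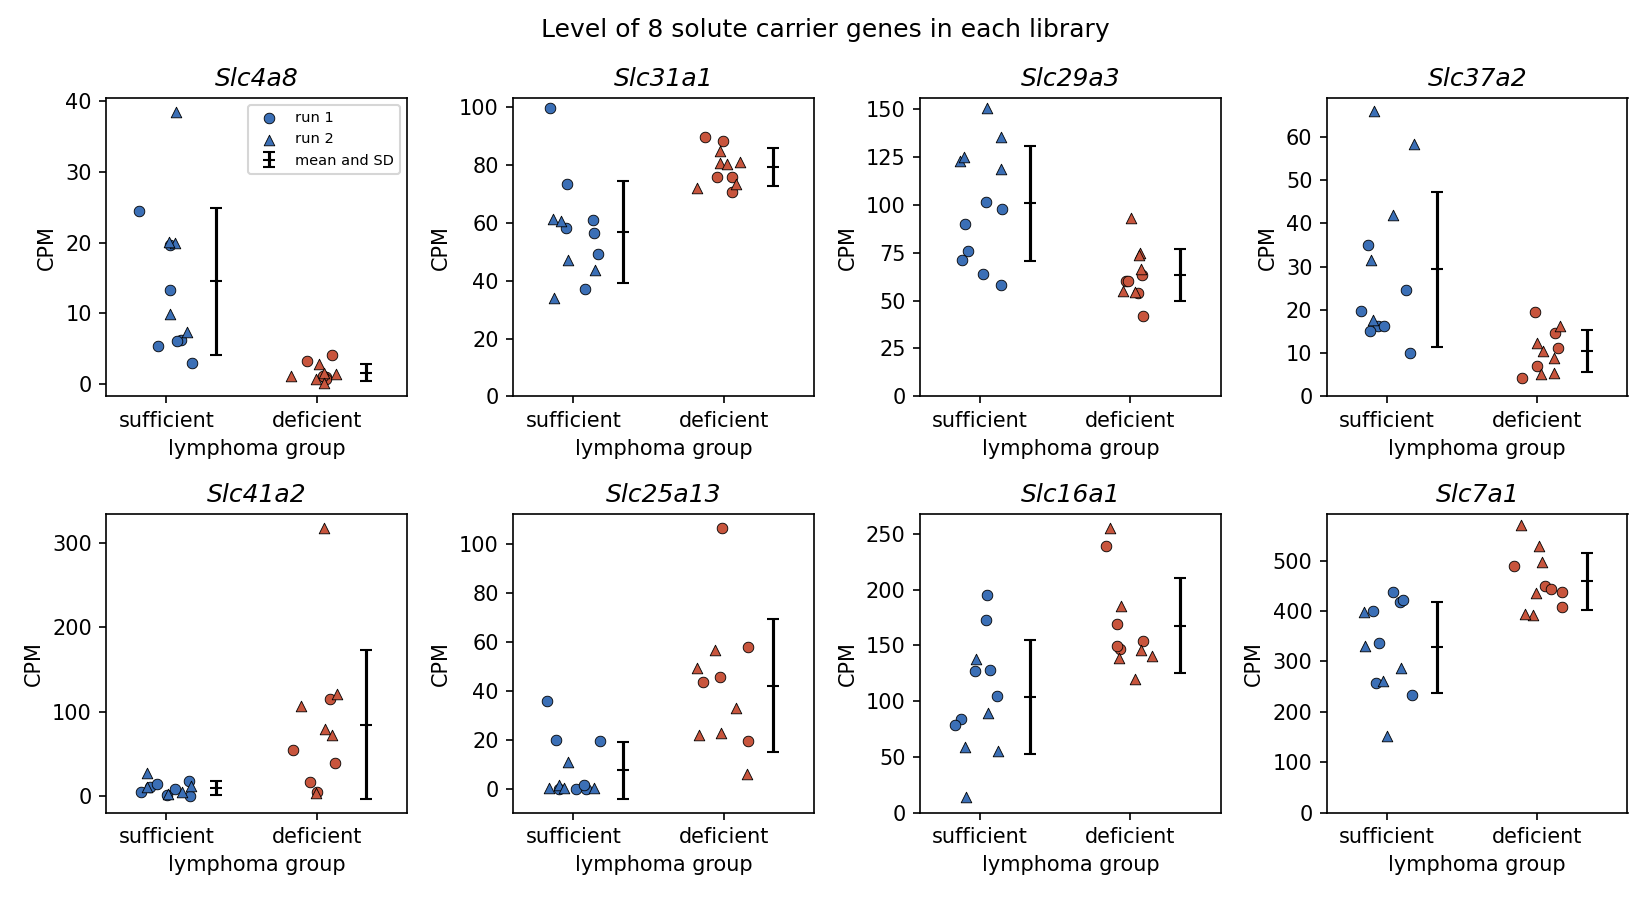
CPM of 8 carrier genes (y axes, from 0) in each library of the T cell sufficient (n = 12) and deficient (n = 11) lymphomas, with circles for run 1, triangles for run 2, and the mean and SD beside them. Slc4a8 reaches at most 4.18 CPM in deficient lymphomas, deficient lymphoma 6 stands at 318 CPM for Slc41a2, and the groups overlap in all 8 panels.

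Of the 4 nucleoside carriers 2 were lower and 0 higher, where 11.7% of all genes were lower. Slc29a3 (ENT3), the equilibrative nucleoside transporter of lysosomes, ranged over 58.3, 99.5 and 150.3 CPM in sufficient and 42.1, 60.1 and 93.0 CPM in deficient lymphomas. 7 sufficient libraries lay above every deficient one and 4 deficient libraries below every sufficient one. It was 1.62-fold lower (log2 change -0.70 ± 0.12 SE, adjusted edgeR p 0.000531), with -0.51 in run 1 and -0.90 in run 2, and a permutation p within runs of 6e-05. Slc28a2 (CNT2), which takes up purine nucleosides with sodium, ranged from 10.8 to 209 CPM with a median of 72.5 in sufficient and from 5.005 to 84.1 CPM with a median of 38.2 in deficient lymphomas. It was 2.57-fold lower (-1.36 ± 0.41 SE, adjusted p 0.0217), but the adjusted p was 0.0701 without the 3 libraries least like the rest. Slc29a1 (ENT1), the plasma membrane carrier that feeds salvage, was at a median of 42.7 CPM in sufficient and 70.3 CPM in deficient lymphomas and did not pass (0.48 ± 0.27 SE, adjusted p 0.207), though it did without deficient 6 (adjusted p 0.0403). Of 14 tested salvage enzymes 3 were higher and 0 lower, with a list median of -0.08, and 10.6% of all genes were higher. The 3 were Tk1, thymidine kinase (0.64 ± 0.12, adjusted p 0.00158), Uck2, uridine-cytidine kinase (0.64 ± 0.19), and Dctd, deoxycytidylate deaminase (0.77 ± 0.21).

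Of 26 metal carriers 2 were higher and 0 lower, or 7.69% called where 22.2% of all genes were. Slc41a2, a magnesium transporter, had the largest log2 change upward among the 184 carriers tested. It ranged over 0, 9.02 and 27.3 CPM in sufficient and 2.82, 72.5 and 318 CPM in deficient lymphomas. 8 of 11 deficient libraries lay above every sufficient one, and deficient 3, 7 and 8 lay within the sufficient range. Its log2 change was 2.97 ± 0.70 (SE, adjusted edgeR p 0.00543), or 7.81-fold, with 2.53 in run 1 and 3.43 in run 2, and a permutation p within runs of 0.00327. It missed the threshold in limma-voom, with an adjusted p of 0.0668. Slc31a1 (CTR1), the copper importer, was 1.43-fold higher (0.51 ± 0.13 SE, adjusted p 0.00866), at 33.9, 57.4 and 99.9 CPM in sufficient and 70.5, 80.2 and 89.5 CPM in deficient lymphomas. The deficient libraries of Slc31a1 lay close together, 10 of 12 sufficient ones lay below all of them, and sufficient 4 was the highest of all.

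Iron carriers did not pass the test. Slc11a2 (DMT1), which brings iron out of endosomes, had a log2 change of 0.09 ± 0.23 (SE, adjusted edgeR p 0.801), and the zinc importer Slc39a10 (ZIP10) one of 0.27 ± 0.18 (adjusted p 0.28). Slc40a1 (ferroportin, the iron exporter) ranged over 7.19, 36.6 and 367 CPM in sufficient and 9.09, 24.97 and 97.9 CPM in deficient lymphomas. Slc11a1 (NRAMP1), a phagosomal metal transporter of macrophages, ranged over 2.79, 8.66 and 71.3 CPM and 1.27, 6.93 and 20.9 CPM. Sufficient 11 was highest for both genes and also had the highest summed macrophage markers, 3717 CPM. Their levels followed each other with group and run means removed (r 0.865, permutation p 1e-05, adjusted 6e-05 over 6 pairs; rho 0.854, permutation p 1e-05, adjusted 6e-05; r 0.791 without sufficient 11 and deficient 1), and r was 0.921 within run 1 and 0.845 within run 2. The p of 1e-05 is the smallest that 100000 permutations can give, and the part of macrophage RNA in this relation was not tested. Among 16 tested iron and metal handling proteins, 1 was higher (Tfrc, the transferrin receptor, 0.51 ± 0.17, adjusted p 0.0354) and 1 lower (Fth1, ferritin heavy chain, -0.55 ± 0.17, adjusted p 0.0246). Of all genes tested 10.6% were higher and 11.7% lower.

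Among 26 tested carriers of inorganic ions 4 were lower and 1 higher, or 19.2% called where 22.2% of all genes were. The ion carriers called included the carrier with the smallest p of all. Slc4a8 (NDCBE), which exchanges chloride for sodium and bicarbonate, ranged over 2.97, 11.6 and 38.5 CPM in sufficient and 0.2185, 1.196 and 4.18 CPM in deficient lymphomas. 11 of 12 sufficient libraries lay above every deficient one and 9 of 11 deficient libraries fell under the whole sufficient range, with sufficient 2 and deficient 8 and 11 in the overlap. It was 8.64-fold lower (log2 change -3.11 ± 0.49 SE, adjusted edgeR p 0.000338). Its log2 change was -2.46 in run 1 and -3.84 in run 2, and the permutation p within runs was 1e-05, the smallest possible.

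Slc12a9, a cation-chloride cotransporter family member, was lower by 1.67-fold (-0.74 ± 0.22 SE, adjusted edgeR p 0.0218), with an adjusted p of 0.0546 without sufficient 11. Slc9a8 (NHE8), a sodium-proton exchanger of the Golgi and endosomes, was lower (-0.27 ± 0.09 SE, adjusted p 0.036) and passed in 14 of 23 fits with a library left out. Slc4a7 (NBCn1), a sodium-bicarbonate cotransporter that imports base, was higher, at 46.8, 70.3 and 126 CPM in sufficient and 57.1, 107 and 172 CPM in deficient lymphomas (0.53 ± 0.16 SE, adjusted p 0.0226). Its adjusted p was 0.116 without the 3 libraries with both Xist and Ddx3y and 0.093 without the 3 least like the rest. The bicarbonate carriers Slc4a7 and Slc4a8 thus changed in opposite directions, and their mean levels per length were 4.97 and 1.11 CPM per kb in sufficient and 7.2 and 0.127 CPM per kb in deficient lymphomas.

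**Figure D4:**
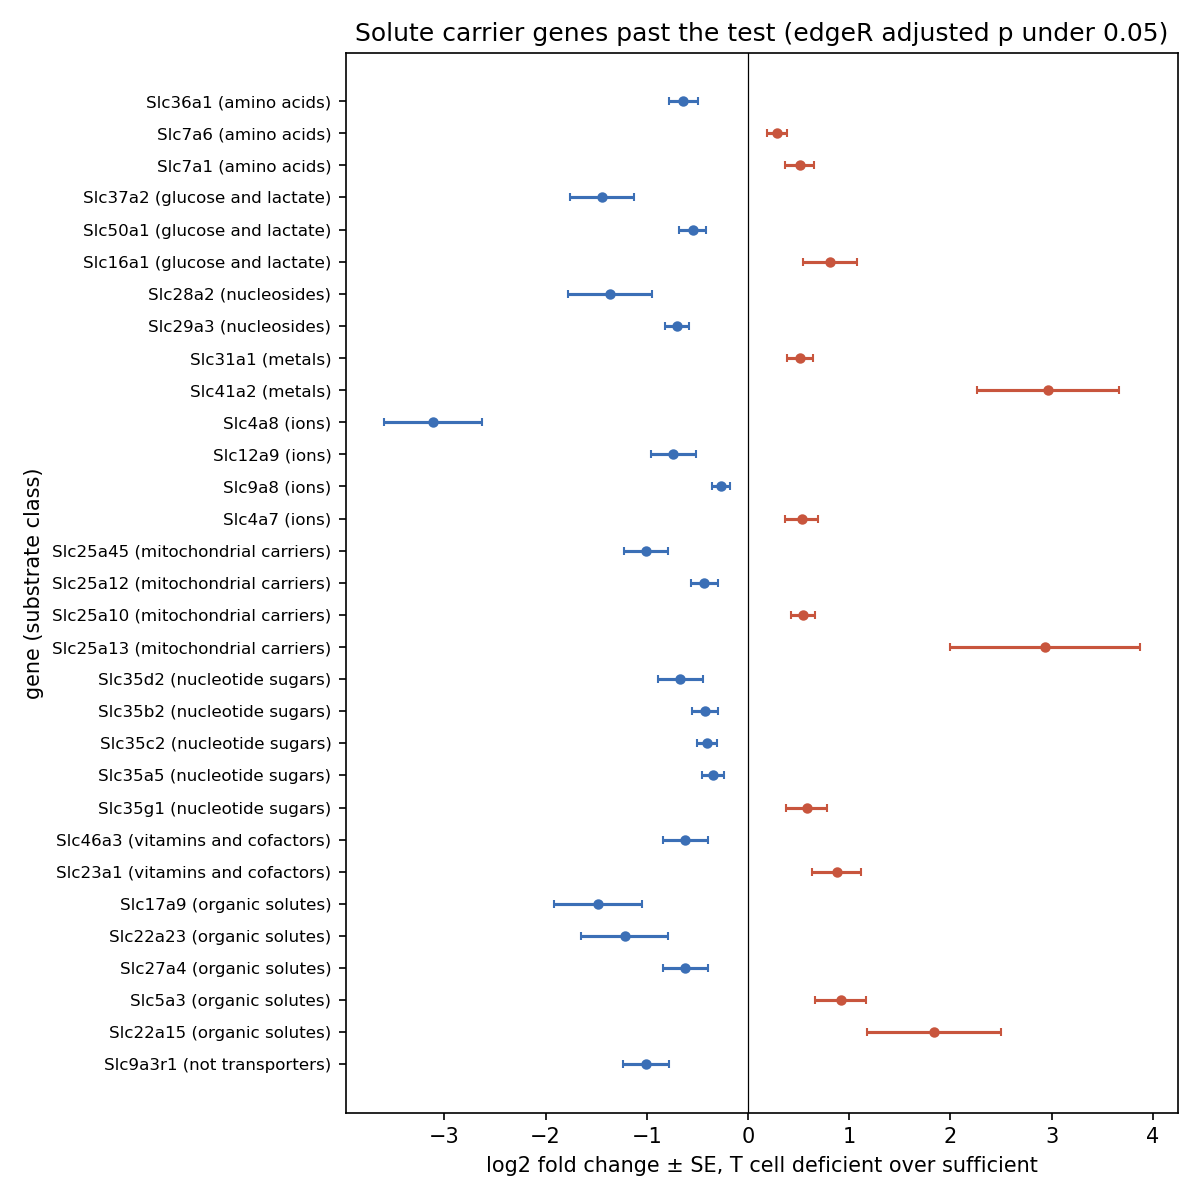
Log2 fold change of T cell deficient over sufficient lymphomas with its SE (x axis) for carrier genes past the test, ordered by substrate class (y axis). Both nucleoside carriers that passed and 4 of 5 nucleotide sugar carriers lie left of 0, and both metal carriers that passed lie right of it.

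Mitochondrial carriers held the most abundant members per kilobase: the adenine nucleotide translocase Slc25a5 (ANT2) at 429 CPM per kb ± 169 (SD, n = 12) in sufficient and 502 ± 343 (SD, n = 11) in deficient lymphomas, and the phosphate carrier Slc25a3 and the translocase Slc25a4 (ANT1) were also among the 5 highest. The translocase and phosphate carrier genes have near-identical copies elsewhere in the genome, so their levels are uncertain, and Slc25a5 is on the X chromosome. None of these passed; the adjusted edgeR p of Slc25a4 was 0.0502 (0.30 ± 0.11 SE), and it passed in 8 of 23 fits with a library left out. Of 35 members 2 were higher and 2 lower, or 11.4% called where 22.2% of all genes were.

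The aspartate-glutamate carriers, which export aspartate from mitochondria in the malate-aspartate shuttle, moved in opposite directions. Slc25a13 (citrin, AGC2) ranged over 0, 0.805 and 35.7 CPM in sufficient and 6.16, 43.7 and 107 CPM in deficient lymphomas. 8 of 12 sufficient libraries lay below every deficient one, of which 6 were at or under 3 counts, 3 of these at 0, and sufficient 4, 5, 6 and 11 lay within the deficient range. Its log2 change was 2.93 ± 0.94 (SE, adjusted edgeR p 0.0291), with 2.31 in run 1 and 3.62 in run 2. The call was lost without deficient 7, the highest library (adjusted p 0.0548). The adjusted p was 0.0723 without the 3 libraries with both Xist and Ddx3y and 0.0763 without the 3 least like the rest. Slc25a12 (aralar, AGC1) was lower by 1.35-fold (-0.43 ± 0.14 SE, adjusted p 0.0268), with -0.12 in run 1 and -0.77 in run 2, an unadjusted interaction p of 0.0103 and an adjusted p of 0.0506 without sufficient 12. The adjusted edgeR p of Slc25a12 was 0.0858 without the 3 libraries with both Xist and Ddx3y and 0.108 without the 3 least like the rest. Per kilobase, Slc25a13 exceeded Slc25a12 in 6 of 11 deficient and 0 of 12 sufficient libraries, and the sum of both was 14.5 CPM per kb ± 3.53 (SD, n = 12) in sufficient and 20.4 ± 8.76 (SD, n = 11) in deficient lymphomas. Got2, the aminotransferase that works beside these carriers, was higher in deficient lymphomas (mean of 274 CPM with an SD of 66.7 over 11 libraries, against 192 CPM with an SD of 52.3 over 12; log2 change 0.56 ± 0.13 SE, adjusted edgeR p 0.0042).

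Slc25a10, the dicarboxylate carrier that exchanges malate or succinate for phosphate, was 1.45-fold higher in deficient lymphomas (0.54 ± 0.12 SE, adjusted edgeR p 0.00328). It ranged over 17.8, 41.6 and 55.6 CPM in sufficient and 38.9, 56.1 and 77.0 CPM in deficient ones, and 6 deficient libraries lay above every sufficient one. Its level was also lower in run 2 than in run 1 (log2 difference -0.52 ± 0.12 SE), and without the run term its adjusted edgeR p was 0.0501. Slc25a10 overlaps another annotated gene. Slc25a45 was 2.02-fold lower (-1.01 ± 0.22 SE, adjusted p 0.00298), at 9.52, 29.0 and 41.3 CPM in sufficient and 9.25, 13.6 and 24.2 CPM in deficient lymphomas. 9 of 12 sufficient libraries of Slc25a45 lay above every deficient one, and its changes in the runs were -0.91 and -1.12.

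The Slc35 family and its relatives bring nucleotide sugars and sulphate donors into the Golgi for glycosylation. Of 22 members 4 were lower and 1 higher, or 22.7% called, near the 22.2% of all genes. A negative log2 change was found for 17 of 22, and for 111 of the 184 carriers tested, and the class median was -0.17. Slc35c2, a Golgi family member linked to Notch fucosylation, was lower by 1.33-fold (-0.41 ± 0.10 SE, adjusted edgeR p 0.00695), at 63.1, 86.0 and 112 CPM in sufficient and 51.6, 66.5 and 81.6 CPM in deficient lymphomas, with 8 sufficient libraries above every deficient one. Slc35b2, which carries the sulphate donor PAPS, was lower by 1.34-fold (-0.42 ± 0.13 SE, adjusted p 0.0203), with an adjusted p of 0.0792 without the 3 libraries with both Xist and Ddx3y. Slc35a5 (-0.34) and Slc35d2 (-0.67) passed with adjusted p of 0.0287 and 0.0324. Slc35a5 missed the threshold without sufficient 10 or deficient 7 or 10, with an adjusted p of up to 0.0568, and Slc35d2 passed in 15 of 23 fits. Slc35g1 was higher (0.58 ± 0.21 SE, adjusted p 0.0473) but passed in 6 of 23 fits.

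**Figure D5:**
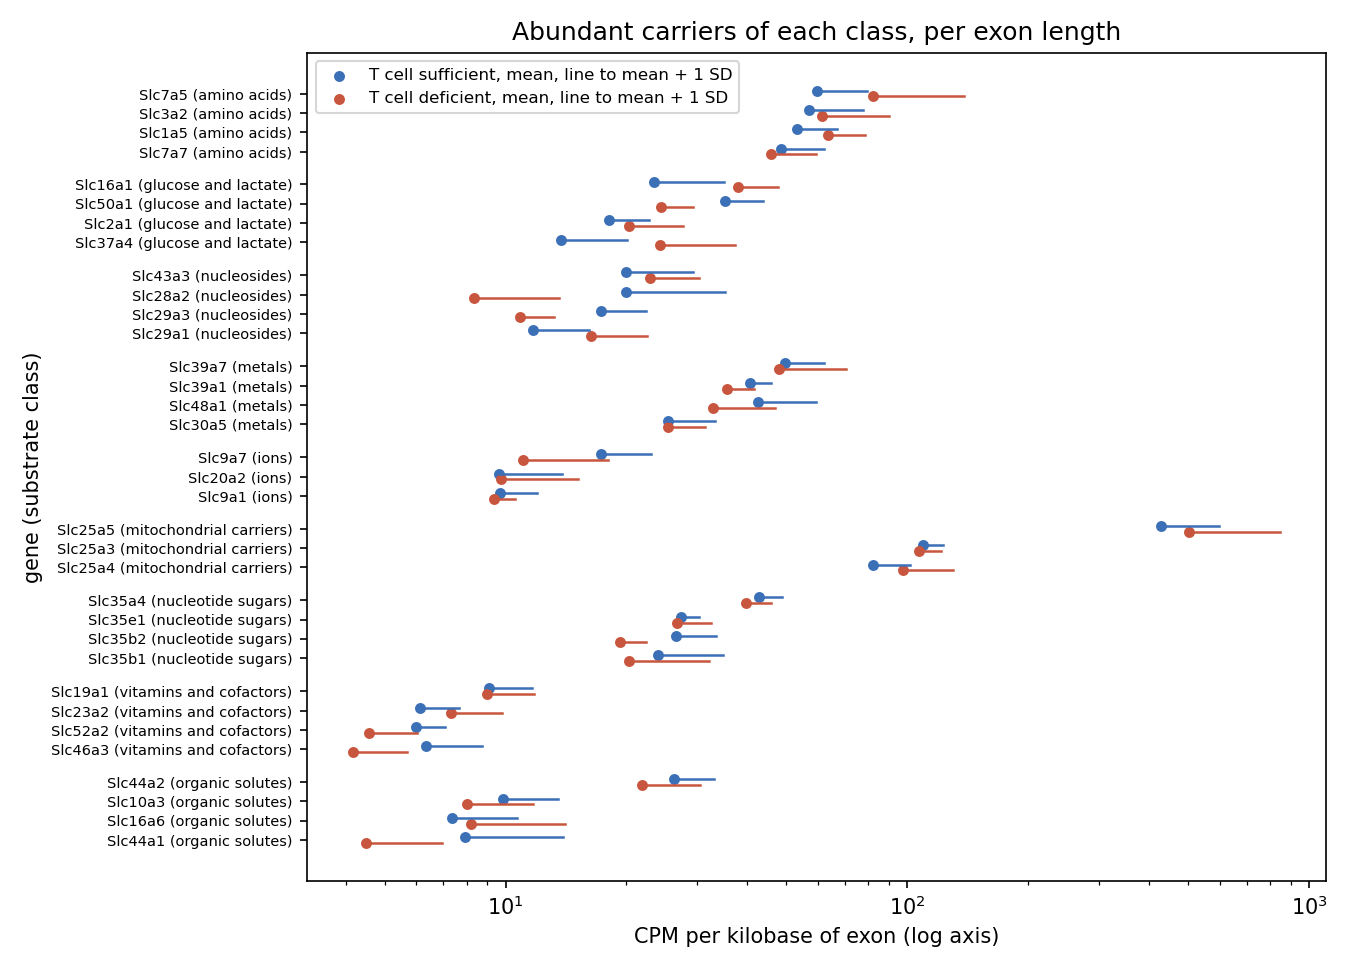
Mean level per exon length (x axis, CPM per kilobase, log axis) of abundant carriers of each of 9 substrate classes, at most 4 a class, (y axis) in T cell sufficient and deficient lymphomas, with lines to the mean plus 1 SD. Slc25a5 stands highest, at 429 and 502 CPM per kilobase, and the highest vitamin carrier, Slc19a1, stands at 9.10 and 8.99.

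Vitamin carriers and carriers of other organic solutes changed in both directions. Of 8 vitamin carriers 1 was higher and 1 lower: Slc23a1 (SVCT1, ascorbate uptake; 0.87 ± 0.24 SE, adjusted edgeR p 0.0138) and Slc46a3, a lysosomal carrier (-0.62 ± 0.22, adjusted p 0.0454, passing in 9 of 23 fits). Slc23a1 was low, at medians of 2.65 and 7.44 CPM, higher in run 2 by 1.72 ± 0.25 (SE) on the log2 scale, and at an adjusted p of 0.0938 without the 3 libraries with both Xist and Ddx3y. Slc19a1, the reduced folate carrier, had a log2 change of 0.02 ± 0.16 (SE, adjusted p 0.933). Of 22 organic solute carriers 2 were higher and 3 lower, or 22.7% called, near the 22.2% of all genes. Slc5a3, the sodium-myo-inositol cotransporter that responds to osmotic stress, was 1.88-fold higher (0.91 ± 0.25 SE, adjusted p 0.0122), at 1.49, 2.77 and 7.62 CPM in sufficient and 4.33, 6.04 and 11.1 CPM in deficient lymphomas. 9 sufficient libraries lay below every deficient one, the adjusted p was 0.0564 without the 3 libraries with both Xist and Ddx3y, and Slc5a3 shares its locus with Mrps6. Slc17a9 (VNUT), which loads ATP into vesicles, was 2.79-fold lower (-1.48 ± 0.43 SE, adjusted p 0.0187), at 2.36, 15.2 and 68.2 CPM in sufficient and 2.50, 5.46 and 20.3 CPM in deficient lymphomas. 5 sufficient libraries lay above every deficient one, and the adjusted p was 0.082 without the 3 libraries least like the rest.

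The calls of Slc22a15, Slc22a23 and Slc27a4 were near the threshold. Slc22a15, an organic zwitterion carrier, was 3.56-fold higher (1.83 ± 0.66 SE, adjusted edgeR p 0.0492), with 7 deficient libraries above every sufficient one, and passed in 6 of 23 fits with a library left out. The orphan carrier Slc22a23 (-1.22 ± 0.43, adjusted p 0.0451) passed in 8 of 23 fits and the fatty acid transport protein gene Slc27a4 (-0.62 ± 0.22, adjusted p 0.0468) in 6 of 23. Slc9a3r1, which encodes the scaffold NHERF1 and no transporter, was 2.01-fold lower (-1.01 ± 0.23 SE, adjusted p 0.00388). It ranged over 69.6, 120 and 218 CPM in sufficient and 35.1, 48.7 and 137 CPM in deficient lymphomas, with 8 deficient libraries below every sufficient one and deficient 7, 9 and 11 among the sufficient ones.

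The summed level of all carriers differed by less than its spread, with 10741 CPM in sufficient lymphomas (SD 918, n = 12) and 10715 CPM in deficient ones (SD 1437, n = 11). Among carriers in the authors' deposited table, 35 had an adjusted p under 0.05, 12 higher and 23 lower, against a background of 22.8% of all genes. Of these, 30 were among the 32 called here. Slc27a4 and Slc35g1 had adjusted p of 0.127 and 0.0504 in the authors' deposited table. Slc12a2, Slc15a2, Slc30a6, Slc9a5 and Slc9a7 passed in the authors' deposited table alone. Between runs, with group as a term, 32 carriers were higher and 17 lower in run 2, against a background of 18.6% and 17.7% of all genes, or 36.3% together, and 8 of the 32 carriers that differed between the groups also differed between the runs.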

How the data were processed

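RNA-seq was done on purified B lymphoma cells. The authors deposited whole-number counts per gene, CPM scaled to the library total, log2 fold changes, mean log2 expression and adjusted and unadjusted p-values. The builds mm10 and GRCm38 and the tool limma are named in the submitters' processing notes, which name no aligner in the sources used here. Every listed gene exceeded 1 CPM in at least 7 libraries. The repeat library of sufficient lymphoma 1 was not used here separately, and whether the column of that lymphoma, taken as run 1, also holds the run 2 reads is not stated. The column of sufficient lymphoma 4 was matched by its number. Replicates are separate lymphomas per the labels.

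The deposited counts were tested with edgeR 4.0.16 (filterByExpr, TMM scaling, robust quasi-likelihood fit, terms for run and group; adjusted p under 0.05) in R 4.3.3, over all genes. The test was also run on simulated counts, drawn from the count model that edgeR assumes and with no difference between runs. The outcome is not given here, so that check lends the results no support. CPM printed here are TMM-scaled. CPM per kilobase use the exon length of GENCODE M21. Permutation tests for single genes were two-sided, drew 100000 relabellings within runs and were run for 9 class leaders. DESeq2 1.42.0, limma 3.58.1, other scalings, no filter, no run term, each run alone, a replicate block, a threshold of 0.01 and leaving out each library were alternatives. The members, substrate classes, gene lists and motifs were chosen with earlier results of these data known, so no list is independent evidence of its direction. Genes were named by a rule: the 4 members with the smallest p in each class among those called, the 5 with the largest changes each way, the 5 most abundant per kilobase, and 16 preset carriers. Some genes that the rule names are not reported here.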

Additional observations from a re-analysis of the deposited data

How the results depend on the processing

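Of the 50 named genes' values under the alternatives, 1456 of 1700 kept their side of the threshold, 227 lost the call and 17 gained it. In 0 of them was a call reversed, but some genes that did not pass changed sign. Slc16a3 had a log2 change of -0.41 over both runs and 0.84 in run 2 alone, and Slc1a5 0.19 over both runs and -0.04 in run 1 alone. Higher carriers numbered 12 in the edgeR fit with a run term, 0 in run 1 alone, 7 in run 2 alone and 20 with DESeq2. Lower carriers numbered 20 in the edgeR fit with a run term, 13 with scaling to the total count and 13 without a run term. In run 1 alone 0 were lower and in run 2 alone 12. At an adjusted p under 0.01 there were 3 higher and 9 lower. The genes counted can differ between fits. The share of all genes called is given above for the fit with a run term and for each run alone. For the other fits it is not given, so their counts do not set carriers apart from other genes. 2 sets of libraries were left out as choices made after seeing the data: without the 3 libraries with both Xist and Ddx3y the counts were 6 and 12, and without the 3 least like the rest 6 and 13; fewer samples entered these fits, and the cause was not otherwise tested. Leaving out each library in turn gave 8 to 17 higher and 15 to 21 lower carriers. With the replicate block the counts were 11 and 11, but the numbers do not pair the samples: 4 of 11 same-numbered pairs had deviations correlated over 0.1, and 1 of 11 correlated best with its own number. The interaction count stayed at 0 in edgeR with each scaling and without the filter, in DESeq2 and in limma-voom. Depth limits the low carriers most: Slc25a13 was at or under 3 counts in 6 sufficient libraries.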

Other observations

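Some carriers were uneven among the lymphomas, low in some and much higher in others. The median SD of log2 CPM within a group was 0.587 (sufficient) and 0.527 (deficient) over the 186 carriers, and 0.463 and 0.42 over all genes. Slc7a3 (CAT3, a cationic amino acid transporter) stood at 119 CPM in deficient 9 and at no more than 7.04 CPM in any other library. Slc22a12 (URAT1, a urate carrier of the kidney) and Slc8a2 (NCX2, a sodium-calcium exchanger) were highest in deficient 6, at 39.8 and 60.2 CPM, the library that was also highest for Slc41a2, Slc16a1 and Slc22a15. Slc15a2 (PEPT2, a peptide importer) ranged from 0.3 to 86.4 CPM in sufficient lymphomas and reached 74.0 CPM in deficient 3. Its level also differed between the runs, with sufficient means of 8.05 CPM (SD 10.5, n = 7) in run 1 and 53.9 CPM (SD 28.6, n = 5) in run 2. Slc30a4 (ZnT4, a zinc exporter) was at 36.8 CPM in sufficient 4 and at 14.6 and 14.1 CPM in sufficient 3 and 11. None of these 5 genes passed edgeR's test between the groups, with adjusted p of 0.0555 to 0.215. They were chosen after their values were seen, and no explanation was tested.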
